A study of Rattus norvegicus with 15 samples.

Results

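Adhesion molecules let blood leukocytes hold on to the wall of an artery and cross it. The genes described here are Icam1, Icam2, Vcam1, Selp and Pecam1 in mesenteric arteries of the rat, the arteries that supply the gut. Their members on the array are all probe sets that the platform annotation gives 1 of these 5 symbols, 7 probe sets of the 8740 that are not array controls, and 5 of the 4736 genes named there. All 7 belonged to the 6512 probe sets bright enough to be tested. The genes were picked with their strain difference in control arteries already known, so that difference is given below as a description with no test.

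RNA was measured on 15 Affymetrix rat expression arrays. SHR collateral arteries had 4 arrays, SHR control arteries 4, WKY collateral arteries 4 and WKY control arteries 3. SHR is the spontaneously hypertensive rat, an inbred strain with high blood pressure, and WKY is the Wistar Kyoto rat, the normotensive strain it is usually set against. A collateral is an artery that carried extra flow because its neighbours had been occluded, and a control artery had no such occlusion beside it. Age, sex, blood pressure and the time after occlusion are not given in the labels used here. Whether each array stands for its own animal is not stated, so the p-values speak only of the spread between these samples, which may be technical. The values were whole artery RNA, in which fewer cells of a type and less RNA per cell cannot be told apart.

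The first contact of a rolling leukocyte with endothelium is made by selectins such as P-selectin (Selp), which endothelial cells and platelets keep in storage granules. Firm arrest then needs members of the immunoglobulin family, Icam1, Icam2 and Vcam1, which are ligands of leukocyte integrins. Icam2 is present on resting endothelium, while Icam1 and Vcam1 are strongly raised by inflammatory cytokines through NF-kB. Pecam1 lies at the junctions between endothelial cells, and on platelets and leukocytes, and takes part in the passage of leukocytes through the wall.

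The promoters of Vcam1 and Icam1 are shown because only these 2 of the 5 genes were matched in the promoter table. Both are textbook targets of NF-kB. The 250 bases before the start of each gene come from RefSeq on the GRCr8 build. Capitals mark matches, on either strand, to GGNNNTTCC, a spelling of the NF-kB motif.
Vcam1: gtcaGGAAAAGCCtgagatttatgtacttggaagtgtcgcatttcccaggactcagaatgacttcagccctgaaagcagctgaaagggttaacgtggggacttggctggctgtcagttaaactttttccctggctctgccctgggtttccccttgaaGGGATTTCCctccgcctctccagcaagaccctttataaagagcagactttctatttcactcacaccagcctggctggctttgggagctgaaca
Icam1: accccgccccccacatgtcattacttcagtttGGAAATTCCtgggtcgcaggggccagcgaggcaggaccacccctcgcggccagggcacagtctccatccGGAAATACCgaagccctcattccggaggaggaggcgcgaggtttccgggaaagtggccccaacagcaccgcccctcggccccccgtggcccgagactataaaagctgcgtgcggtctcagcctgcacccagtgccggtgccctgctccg
The Vcam1 sequence lies at chr2:206742784-206743033 on the minus strand. Counted from the gene start, it held GGNNNTTCC at -93 to -85 and, on the other strand, at -246 to -238. The Icam1 sequence lies at chr8:27829595-27829844 on the plus strand. It held the motif at -218 to -210, where both strands matched it, and at -149 to -141 on the other strand. Both promoters thus held the motif at 2 places. Of 33469 promoters of this length, 15.4% held it at least once and 1.57% at 2 or more places. A match describes the letters in the window and is not a measured binding site.

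One array stood apart before any comparison was made. SHR collateral 3 had Spearman correlations of 0.496 to 0.657 with the other 14 arrays over the tested probe sets, while those 14 correlated with each other between 0.805 and 0.931. Its 20th percentile of signal was 171.2, above the 43.4 to 83.3 of the other arrays. RNA quality, read as the log2 signal of the 3' over the 5' control probe sets of actin and Gapdh, gave 1.64 to 2.06 in SHR collateral and 2.10 to 2.62 in WKY collateral arrays, without overlap. It was 1.71 to 2.31 in SHR control and 2.07 to 2.38 in WKY control arrays. Its part in the results was not tested. The labelled tissue matched its markers, since 6 of 6 smooth muscle markers on the array, Acta2 and Myh11 among them, were above the 40th percentile of signal on all 15 arrays.

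In control arteries, most adhesion molecule probe sets read lower in SHR than in WKY, and Pecam1 read higher. The SHR and WKY control arrays did not overlap for Icam2, for 1 of 2 Vcam1 probe sets, for 1 of 2 Icam1 probe sets and for Selp, all lower in SHR, a pattern seen in 3.72% of all tested probe sets. Pecam1 did not overlap either and was higher in SHR, as were 4.85% of all tested probe sets. The other Vcam1 and Icam1 probe sets overlapped. Over all tested probe sets 0.0307% passed an adjusted p of 0.05 in limma. The median log2 difference was -1.69 over the 7 probe sets and 0.02 over all 6512. Since the genes were chosen by this difference, nothing is read from these counts.

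**Figure D1:**
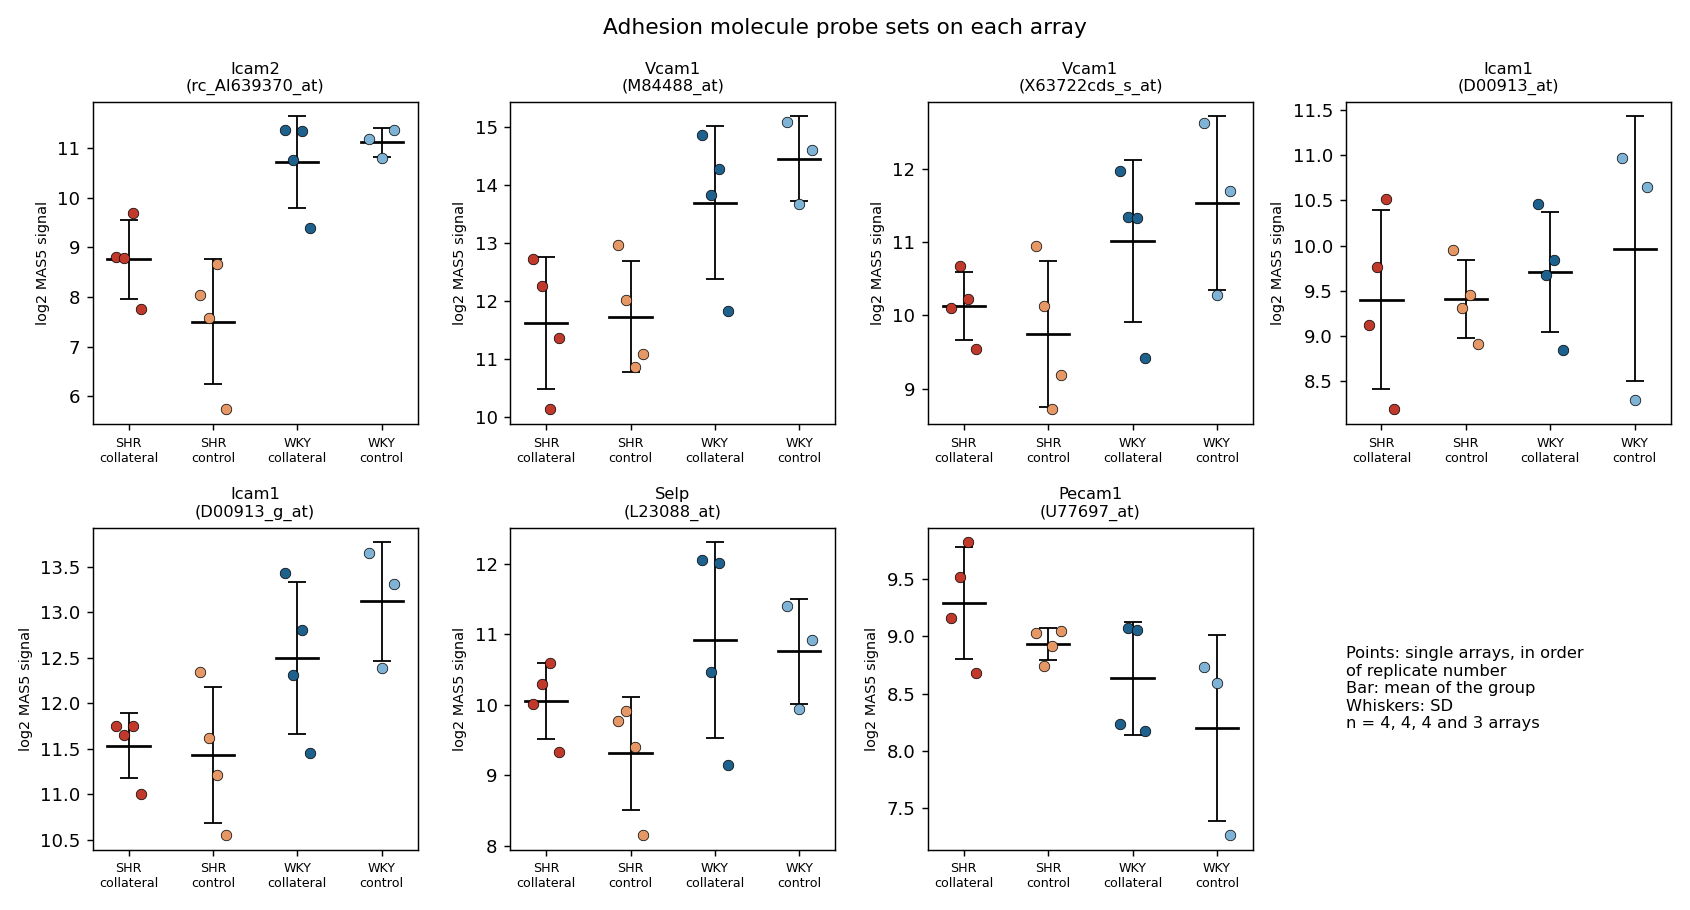
Log2 MAS5 signal of each of the 7 probe sets on each array, with a separate vertical scale per panel. Points are arrays in order of replicate number, bars are group means and whiskers are SD (n = 4, 4, 4 and 3). Icam2 and Vcam1 (M84488_at) show the widest gap between SHR and WKY arrays, while Pecam1 lies on average higher in SHR.

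Icam2, the ligand of leukocyte integrins on resting endothelium, had 1 probe set (rc_AI639370_at, gene on chromosome 10). Its log2 signal was 8.04, 7.57, 8.66 and 5.73 in SHR control arteries, against 11.19, 10.80 and 11.37 in WKY control arteries. In collateral arteries it was 8.80, 8.79, 9.69 and 7.75 in SHR, against 11.37, 10.76, 11.34 and 9.39 in WKY. Every SHR control array lay below every WKY control array, and among collaterals the highest SHR array overlapped the lowest WKY array. The group means were 8.76 ± 0.79 (SD, n = 4) in SHR collateral, 7.50 ± 1.26 (SD, n = 4) in SHR control, 10.72 ± 0.93 (SD, n = 4) in WKY collateral and 11.12 ± 0.29 (SD, n = 3) in WKY control arteries. Ordered by level, WKY control stood above WKY collateral, SHR collateral and SHR control, and only the step between WKY collateral and SHR collateral, 1.96, was wider than the larger SD of the neighbours, 0.93. Of the 4 SHR control arrays, 2 were below their array's 40th percentile of signal and 1 below its 20th, so the lowest values of Icam2 lie near background. In control arteries SHR minus WKY was -3.62 ± 0.61 (SE) on the log2 scale, a WKY signal 12.3 times that of SHR. In collaterals it was -1.96 ± 0.57 (95% interval -3.15 to -0.77; limma, unadjusted p = 0.00284, adjusted p = 0.370), with WKY at 3.89 times SHR.

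Vcam1, which binds integrins of monocytes and lymphocytes and is induced by cytokines, had 2 probe sets (gene on chromosome 2). For M84488_at the log2 signal was 12.95, 12.01, 10.87 and 11.08 in SHR control arteries, against 15.08, 13.66 and 14.60 in WKY control arteries. The collaterals had 12.72, 12.26, 10.13 and 11.36 in SHR, against 14.86, 13.82, 14.27 and 11.82 in WKY. The control arteries of the strains did not overlap, and in collaterals WKY replicate 4 fell among the SHR arrays while the other 3 WKY arrays lay above them all. In order of level, WKY control averaged 14.45 ± 0.72 (SD, n = 3), WKY collateral 13.69 ± 1.32, SHR control 11.73 ± 0.96 and SHR collateral 11.62 ± 1.14 (SD, n = 4 each). Only the step of 1.96 between WKY collateral and SHR control exceeded the larger SD of the neighbours. SHR minus WKY was -2.72 ± 0.67 (SE) in control arteries. In collaterals it was -2.07 ± 0.62 (95% interval -3.38 to -0.77; limma, unadjusted p = 0.00365, adjusted p = 0.384). It was -1.58 ± 0.60 without SHR collateral 3, the array with the lowest value, and -1.06 ± 0.58 when the arrays were weighted by their quality.

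The other Vcam1 probe set, X63722cds_s_at, ran in the same direction with smaller differences. It stood at 10.95, 10.12, 8.72 and 9.19 in SHR control arteries, against 12.62, 10.28 and 11.70 in WKY control arteries. In collaterals it stood at 10.10, 10.67, 10.22 and 9.54 in SHR, against 11.97, 11.34, 11.33 and 9.41 in WKY. The strains overlapped in both vessel types, each time through 1 low WKY array, replicate 2 of the controls and replicate 4 of the collaterals. The means were 10.13 ± 0.46 (SD) in SHR collateral, 9.75 ± 0.99 in SHR control, 11.01 ± 1.11 in WKY collateral and 11.53 ± 1.18 in WKY control arteries, and no neighbouring groups in the order of level differed by more than the larger SD. SHR minus WKY was -1.78 ± 0.61 (SE) in control arteries and -0.88 ± 0.57 in collaterals (limma, unadjusted p = 0.137, adjusted p = 0.705). The collateral value was -1.41 without WKY collateral 4 and -0.56 without WKY collateral 1.

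Icam1, the cytokine-induced ligand of leukocyte integrins, also had 2 probe sets (gene on chromosome 8), both taken from the same GenBank sequence, and they disagreed in size. For D00913_g_at the log2 signal was 12.35, 11.61, 11.21 and 10.55 in SHR control arteries, against 13.65, 12.39 and 13.31 in WKY control arteries. Its collateral values were 11.75, 11.65, 11.75 and 10.996 in SHR, against 13.43, 12.31, 12.80 and 11.45 in WKY. The control arteries did not overlap, and in collaterals 3 of 4 WKY arrays lay above every SHR array. The means were 11.53 ± 0.36 (SD, n = 4) in SHR collateral, 11.43 ± 0.75 (SD, n = 4) in SHR control, 12.50 ± 0.84 (SD, n = 4) in WKY collateral and 13.12 ± 0.65 (SD, n = 3) in WKY control arteries. Only the step of 0.96 between WKY collateral and SHR collateral passed the larger SD, 0.84. SHR minus WKY was -1.69 ± 0.45 (SE) in control arteries, and -0.96 ± 0.41 in collaterals (95% interval -1.83 to -0.09; limma, unadjusted p = 0.0320, adjusted p = 0.616).

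For D00913_at the strains overlapped in both vessel types. The log2 signal was 9.96, 9.31, 9.45 and 8.91 in SHR control arteries, against 10.96, 8.29 and 10.64 in WKY control arteries. In collaterals it was 9.13, 9.77, 10.52 and 8.19 in SHR, against 10.46, 9.68, 9.84 and 8.84 in WKY. The 4 means ran between 9.40 ± 0.99 (SD, n = 4) in SHR collateral and 9.97 ± 1.46 (SD, n = 3) in WKY control arteries, and no step between neighbours passed the SD. SHR minus WKY was -0.56 ± 0.60 (SE) in control arteries and -0.30 ± 0.56 in collaterals, with a 95% interval of -1.47 to 0.86 (limma, unadjusted p = 0.590, adjusted p = 0.879). Without WKY control 2 the control difference was -1.39, and without WKY control 1 it was -0.057. The Icam1 difference therefore rests on D00913_g_at.

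Selp codes for P-selectin, the receptor for rolling leukocytes (L23088_at, gene on chromosome 13). Its log2 signal was 9.77, 9.91, 9.40 and 8.15 in SHR control arteries, against 11.41, 9.94 and 10.92 in WKY control arteries. Collateral arteries had 10.01, 10.30, 10.59 and 9.32 in SHR, against 12.05, 10.46, 12.00 and 9.15 in WKY. The controls did not overlap, although the highest SHR array and the lowest WKY array nearly met, and in collaterals WKY replicate 4 was the lowest of the 8 arrays. The means were 10.06 ± 0.54 (SD, n = 4) in SHR collateral, 9.31 ± 0.80 (SD, n = 4) in SHR control, 10.92 ± 1.39 (SD, n = 4) in WKY collateral and 10.76 ± 0.75 (SD, n = 3) in WKY control arteries, and no step in the order of level passed the SD. SHR minus WKY was -1.45 ± 0.61 (SE) in control arteries and -0.86 ± 0.56 in collaterals (95% interval -2.04 to 0.32; limma, unadjusted p = 0.142, adjusted p = 0.707). The collateral value was -1.45 without WKY collateral 4, -0.48 without WKY collateral 1 and -0.50 without WKY collateral 3.

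Pecam1, the junction molecule, ran the other way (U77697_at, gene on chromosome 10). Its log2 signal was 9.03, 8.74, 8.92 and 9.05 in SHR control arteries, against 8.73, 8.60 and 7.27 in WKY control arteries. The collateral values were 9.16, 9.51, 9.82 and 8.68 in SHR, against 8.24, 9.07, 9.05 and 8.18 in WKY. The control arteries did not overlap by a margin of about 0.01, and in collaterals the lowest SHR array fell among the WKY arrays. The means were 9.29 ± 0.49 (SD, n = 4) in SHR collateral, 8.93 ± 0.14 (SD, n = 4) in SHR control, 8.63 ± 0.49 (SD, n = 4) in WKY collateral and 8.20 ± 0.81 (SD, n = 3) in WKY control arteries, with no step larger than the SD. SHR minus WKY was 0.73 ± 0.44 (SE) in control arteries and 0.66 ± 0.40 in collaterals (95% interval -0.19 to 1.51; limma, unadjusted p = 0.120, adjusted p = 0.691). Without WKY control 3, the array with the lowest value, the control difference was 0.27. On that array Pecam1 lay at percentile 33.6 of signal, below the 40th.

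The strain comparison in collateral arteries used other arrays than the control difference by which the genes were chosen. Its outcome was known as well, so its p-values are not free of that choice. The fit also shares its estimate of the spread between collateral and control arrays. None of the 7 probe sets passed an adjusted p of 0.05, and neither did any of the 6512 (0%; smallest adjusted p 0.0783, limma). At an unadjusted p under 0.05 there were 3 of the 7, Icam2, Vcam1 (M84488_at) and Icam1 (D00913_g_at), each lower in SHR. The same threshold was passed by 496 of all probe sets, or 7.62%, of which 261 were higher and 235 lower in SHR. All 7 had overlapping SHR and WKY arrays, while 3.62% of all probe sets had none. The median log2 difference was -0.88 over the 7 and 0.12 over all probe sets. Without SHR collateral 3, Icam2 stood at -2.27, the second Vcam1 probe set at -0.91, Icam1 at -1.03 (D00913_g_at) and -0.68 (D00913_at), Selp at -1.04 and Pecam1 at 0.48, with none called and the same 3 at an unadjusted p under 0.05.

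**Figure D2:**
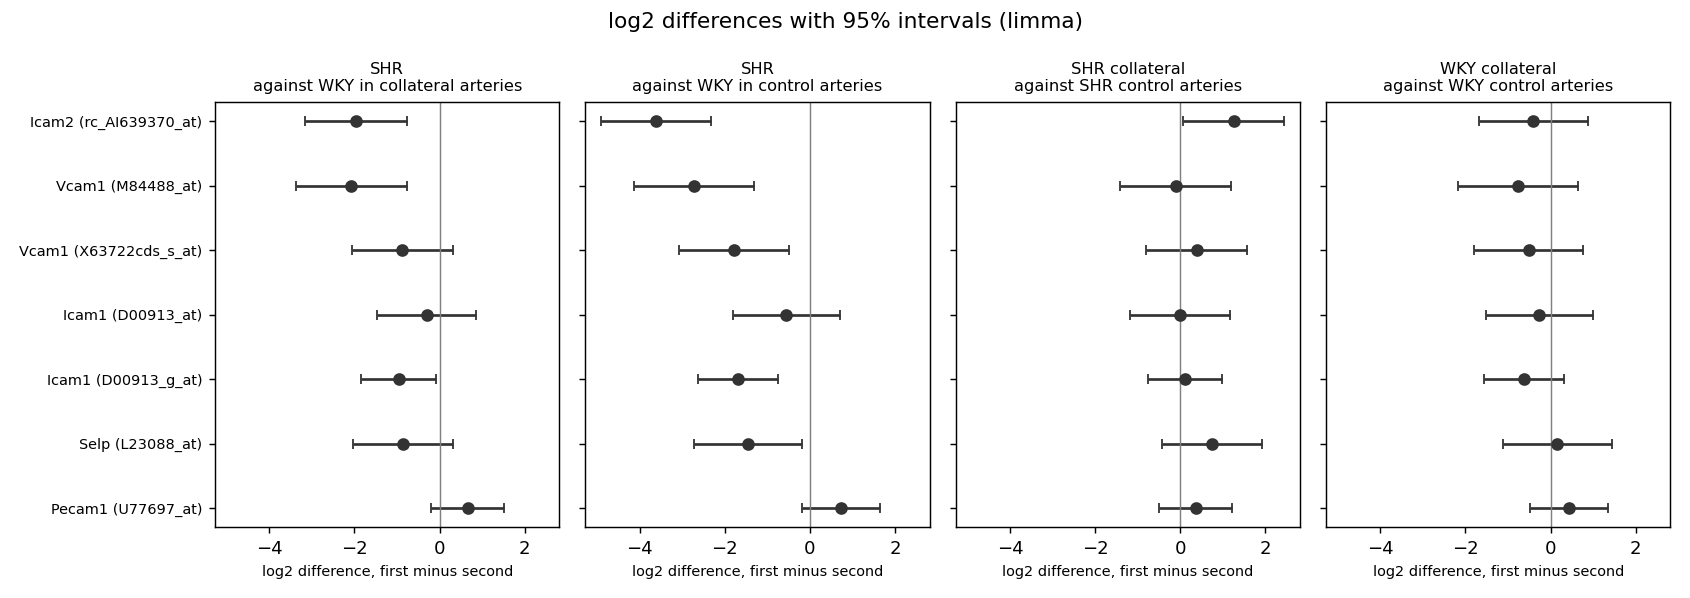
Log2 differences of the 7 probe sets from the limma fit over all arrays, first group minus second group in each panel title, with 95% intervals as whiskers. Both strain panels place 6 probe sets below 0 and Pecam1 above 0. The genes were chosen by the difference in the control strain panel, so its intervals are a description and no test. In the panels of collateral against control arteries every interval crosses 0 except that of Icam2 in SHR.

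Markers of the cells an artery can hold were summed for each array on the linear scale. The endothelial markers other than Icam2 and Pecam1 (Vwf, Kdr, Flt1, Nos3 and Thbd) had a log2 sum of 11.21 to 12.75 in SHR collateral and 11.12 to 12.43 in WKY collateral arteries. In control arteries their sum was 11.69 to 12.03 in SHR and 11.63 to 12.11 in WKY. The strains thus overlapped in both vessel types, with none of the 5 called. Macrophage markers summed to 13.93 to 14.71 in SHR collateral and 11.76 to 14.18 in WKY collateral arteries, and 4 of 4 tested read higher in SHR, 3 of them at an unadjusted p under 0.05. In control arteries their sums were 12.16 to 15.35 in SHR and 11.17 to 12.45 in WKY. Smooth muscle markers read lower in SHR collaterals in 6 of 6 cases, 2 at an unadjusted p under 0.05, with sums of 16.26 to 18.32 in SHR collateral and 17.69 to 18.26 in WKY collateral arteries. With SHR collateral 3 left out, 1 macrophage and 0 smooth muscle markers passed that threshold. Over all 6512 probe sets it was passed by 7.62% with that array and by 339 without it. In control arteries the smooth muscle sums were 17.11 to 18.20 in SHR and 17.73 to 18.27 in WKY. Platelet and red cell markers (Pf4, Itga2b and Hbb) summed to 12.15 to 13.33 in SHR collateral and 11.52 to 14.36 in WKY collateral arteries. In control arteries they summed to 12.13 to 14.50 in SHR and 11.07 to 12.28 in WKY, and 3 of 3 read higher in SHR.

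Smaller marker sets also read higher in SHR. The lymphatic endothelial markers Lyve1 and Pdpn summed to 10.14 to 12.08 in SHR collateral and 9.12 to 10.22 in WKY collateral arteries. In control arteries they summed to 10.79 to 12.07 in SHR and 9.28 to 10.64 in WKY, without overlap. Lyve1, a hyaluronan receptor of lymphatic vessels and some macrophages, stood at 1.45 ± 0.36 (SE) in SHR against WKY collaterals, or 1.27 without SHR collateral 3. Mast cell markers summed to 9.53 to 11.31 in SHR collateral and 8.34 to 9.66 in WKY collateral arteries, and to 9.44 to 10.71 in SHR control and 9.07 to 9.44 in WKY control arteries. Of these, Cpa3, a mast cell protease, stood at 2.51 ± 0.64 in collaterals, or 2.30 without SHR collateral 3. Adipocyte markers read higher in SHR collaterals in 3 of 3 cases, with a median of 1.44 and sums of 12.46 to 15.43 in SHR and 10.84 to 13.82 in WKY. In control arteries the adipocyte sums overlapped widely, at 11.87 to 16.17 in SHR and 12.30 to 15.02 in WKY. Fibroblast, lymphocyte, nerve and mesothelial sums overlapped between strains in both vessel types. In collaterals 5 of 5 nerve markers still read higher in SHR, with a median of 0.75, or 0.71 without SHR collateral 3. The 3 lymphocyte markers tested did so too, with a median of 0.74, or 0.23 without that array. In control arteries 3 of 5 nerve and 1 of 3 lymphocyte markers read higher in SHR. The part of macrophages, smooth muscle, platelets, lymphatic vessels, mast cells, fat, nerve and lymphocytes in the strain differences of the adhesion molecules was not tested.

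No adhesion molecule probe set was called in collateral against control arteries of either strain, where Icam2 in SHR had the largest difference. These comparisons share their control arrays with the difference by which the genes were chosen. In SHR, Icam2 was the only 1 of 7 at an unadjusted p under 0.05, higher in collaterals by 1.26 ± 0.57 (SE; limma, unadjusted p = 0.0400, adjusted p = 0.949), against 3.76% of all probe sets at that threshold. It was 0.95 without SHR collateral 3 and 0.67 without SHR control 4, the array near background. Selp stood at 0.75 ± 0.56, Pecam1 at 0.36 ± 0.40, Vcam1 at -0.11 ± 0.62 and 0.39 ± 0.57, and Icam1 at 0.10 ± 0.41 (D00913_g_at) and -0.01 ± 0.56 (D00913_at). With 1 array left out, Selp ran from 0.36 (without SHR control 4) to 0.99, Vcam1 (X63722cds_s_at) from 0.045 (without SHR control 3) to 0.79 (without SHR control 1) and Pecam1 from 0.18 (without SHR collateral 3) to 0.56 (without SHR collateral 4). The median was 0.36 over the 7 and 0.06 over all probe sets, and 0% of all were called.

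In WKY, 0 of 7 passed an unadjusted p of 0.05 (limma), against 3.16% of all probe sets, and 0% of all were called after adjustment. Collateral minus control was -0.40 ± 0.61 (SE) for Icam2, -0.76 ± 0.67 and -0.52 ± 0.61 for Vcam1 and -0.62 ± 0.45 (D00913_g_at) and -0.26 ± 0.60 (D00913_at) for Icam1. It was 0.16 ± 0.61 for Selp and 0.43 ± 0.44 for Pecam1. Without WKY control 2, Vcam1 (M84488_at) stood at -1.15 and Icam1 (D00913_g_at) at -0.98, and without WKY collateral 4 they stood at -0.13 and -0.27. WKY control arteries had no array numbered 4. The widest interval, that of Vcam1 (M84488_at), ran from -2.17 to 0.65. With 4 against 3 arrays it thus held a large fall as well as a smaller rise.

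The difference between these changes, SHR minus WKY, was largest for Icam2 at 1.66 ± 0.84 (SE; 95% interval -0.10 to 3.42; limma, unadjusted p = 0.0624, adjusted p = 0.99969). It was 1.07 without SHR control 4. For the others it lay between -0.07 ± 0.60 for Pecam1 and 0.90 ± 0.83 for Vcam1 (X63722cds_s_at), which was 1.53 without WKY control 2 and 0.36 without WKY control 1. None of the 7 passed an unadjusted p of 0.05, against 1.9% of all probe sets, and 0% of all were called. Of the 7, 6 lay above 0. This contrast holds, with its sign turned, the control difference by which the genes were chosen. That choice itself favours values opposite in sign to the control difference, so these p-values are no independent test.

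Within each group, the ICAM, VCAM and P-selectin probe sets were often high or low on the same arrays, and their correlations with Pecam1 were lower. Taking every value as its deviation from the group mean, the 6 probe sets other than Pecam1 all lay below the mean on SHR collateral 4 (mean deviation -0.72), SHR control 4 (-0.92), WKY collateral 4 (-1.41) and WKY control 2 (-0.93). They all lay above it on SHR collateral 2 (0.32), SHR control 1 (0.82), WKY collateral 1 (0.93), WKY collateral 3 (0.51), WKY control 1 (0.66) and WKY control 3 (0.27). So on 10 of the 15 arrays all 6 leaned one way. Every array numbered 4 was among the low ones, and WKY control arteries had no array with that number. All arrays numbered 1 except SHR collateral 1 were among the high ones. What the replicate numbers stand for is not given in the labels. The correlations of the deviations between these 6 probe sets ran from 0.34, for Icam2 with Vcam1 (M84488_at), to 0.91, for Icam1 (D00913_g_at) with Selp, over 15 arrays. With Pecam1 they ran from -0.01 to 0.24. When SHR collateral 3 was left out, the correlations between the 6 ran from 0.49, for Icam2 with Vcam1 (X63722cds_s_at), to 0.91, with 0.55 for Icam2 with Vcam1 (M84488_at), and those with Pecam1 ran from 0.046 to 0.20. Values of 1 array share its RNA, labelling and scaling, and these correlations are descriptions.

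**Figure D3:**
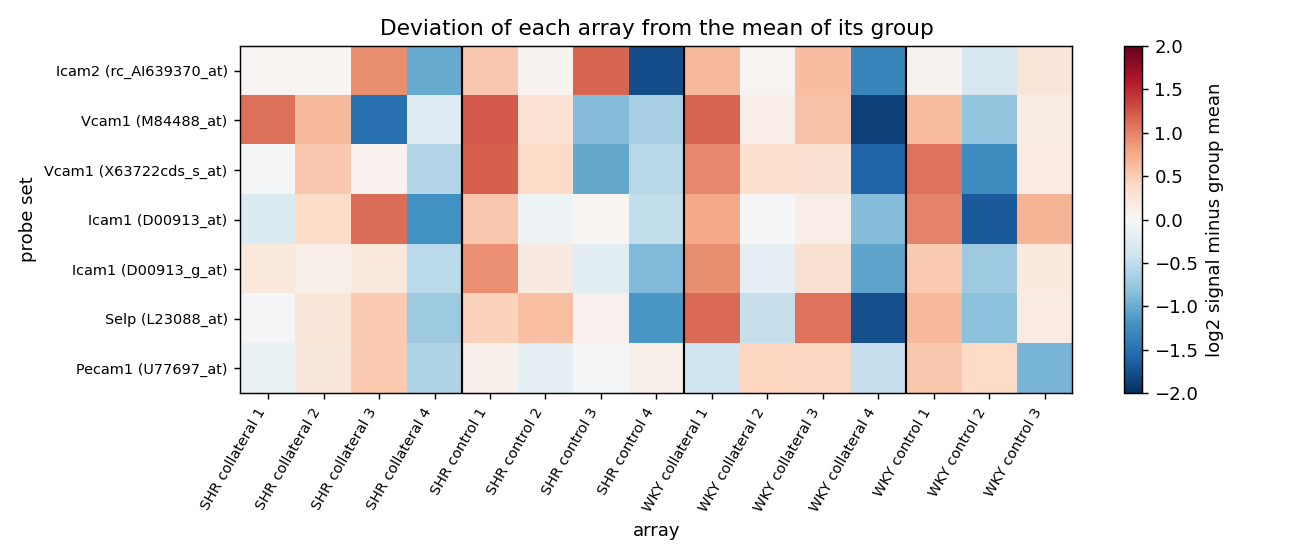
Deviation of the log2 signal from the mean of its group for the 7 probe sets (rows) on the 15 arrays (columns), red above and blue below the mean, with black lines between groups. Whole columns above the Pecam1 row take 1 colour, blue on the arrays SHR collateral 4, SHR control 4, WKY collateral 4 and WKY control 2.

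Because Pecam1 is an endothelial gene whose deviations ran apart from the others, each member was also expressed relative to Pecam1 on its own array, a choice made after the values were seen and given without a test. In collaterals, Icam2 minus Pecam1 averaged -0.54 ± 0.36 in SHR arteries and 2.08 ± 0.83 in WKY arteries (SD, n = 4 each). Vcam1 (M84488_at) minus Pecam1 averaged 2.33 ± 1.40 in SHR and 5.06 ± 1.23 in WKY, and Selp minus Pecam1 averaged 0.76 ± 0.09 in SHR and 2.28 ± 1.33 in WKY. On this scale 5 of the 6 probe sets had no overlap between strains, all lower in SHR, beside 5.82% of all other tested probe sets. The exception was Icam1 (D00913_at), at 0.11 ± 0.50 in SHR and 1.07 ± 0.77 in WKY. The gaps were narrow in 3 of the 5. The highest SHR and the lowest WKY value were 3.56 and 3.65 for Vcam1 (M84488_at), 1.16 and 1.24 for Vcam1 (X63722cds_s_at), and 0.86 and 0.98 for Selp. Pecam1 was chosen together with the other members and read 0.66 higher in SHR collaterals. Subtracting it therefore moves each of these values down in SHR relative to WKY. Without the subtraction all 7 probe sets overlapped between strains in collaterals, so nothing is read from this count.

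The genes whose signal ran most like each member over the 15 arrays included other adhesion molecules, the transcription factor Irf1 and the chemokine Cx3cl1. Vcam1 (M84488_at) had a Pearson correlation of 0.95 with Irf1 (M34253_g_at), which is induced by interferon, of 0.90 with Icam1 (D00913_g_at) and of 0.87 with Cx3cl1 (AF030358_g_at), which endothelial cells carry on their membrane. Without SHR collateral 3 these were 0.93, 0.97 and 0.85. The other Vcam1 probe set ran with Icam1 (D00913_g_at, 0.93), Selp (0.84) and Sele (0.84), the gene of E-selectin. Icam1 (D00913_g_at) ran with that Vcam1 probe set, Selp (0.87) and Icam2 (0.86), and Selp in turn with Icam1, Vcam1 and Icam2 (0.84). Icam2 ran most closely with Ptprj (0.87), a receptor tyrosine phosphatase, and Bhlhe40 (0.86), a transcription factor of the clock. The log2 signal of Ptprj was 5.96 to 6.84 in SHR control arteries, near background, against 8.91 to 10.38 in WKY control arteries. The correlation of Ptprj with Icam2 thus rests in part on values near background. Icam1 (D00913_at) had lower values, of 0.80 with Sftpd, a surfactant protein, and 0.79 with Ppp1r15a, a stress-induced phosphatase regulator. Pecam1 had a separate set, the Notch ligand Jag2 and the activin subunit Inhba (0.88 each) and the growth factor Egf (0.87). All these values hold the strain difference as well as the spread within groups, and they are descriptions over 15 arrays.

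**Figure D4:**
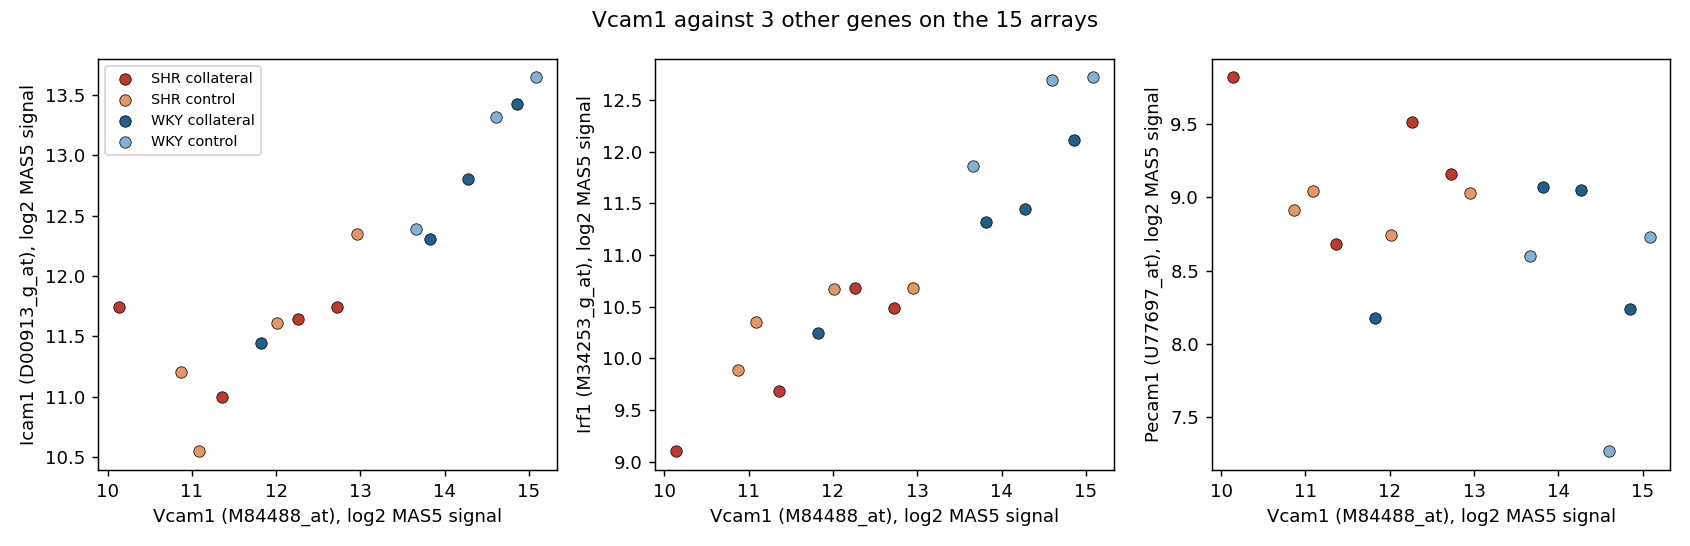
Log2 signal of Vcam1 (M84488_at, horizontal axis) against that of Icam1 (D00913_g_at), Irf1 (M34253_g_at) and Pecam1 (U77697_at) on the 15 arrays, 1 point per array, coloured by group. Icam1 and Irf1 climb with Vcam1 (Pearson 0.90 and 0.95), and Pecam1 does not (-0.50), with the isolated point at the left of the first panel being SHR collateral 3.

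Nfkb1 and Irf1 (M34253_g_at), genes of transcription factors that act on several adhesion molecule genes, read lower in SHR collaterals. Their part in the strain differences of the adhesion molecules was not tested. Nfkb1, a subunit of NF-kB (L26267_at), averaged 9.20 ± 1.00 (SD, n = 4) in SHR collateral and 10.69 ± 0.25 (SD, n = 4) in WKY collateral arteries, a difference of -1.49 ± 0.38 (SE; limma, unadjusted p = 0.000889, adjusted p = 0.226). Irf1 (M34253_g_at) averaged 9.99 ± 0.73 in SHR collateral and 11.28 ± 0.77 in WKY collateral arteries, a difference of -1.29 ± 0.40 (SE; limma, adjusted p = 0.390), but its other probe set (M34253_at) stood at 0.28 ± 0.60. Over the list of inducers, 18 of 32 genes were tested, 0 passed after adjustment, and 0 read higher and 4 lower at an unadjusted p under 0.05, the other 2 being Jun at -1.48 ± 0.65 and Fos at -0.91 ± 0.42. Over all 6512 probe sets 7.62% passed that threshold, 261 higher and 235 lower. Il1b, the gene of interleukin 1 beta, stood at -0.93 ± 0.63 and the NF-kB inhibitor Nfkbia at -0.66 ± 0.46. The median log2 difference was -0.42 over the 18, beside 0.12 over all probe sets. Without SHR collateral 3, Nfkb1 stood at -1.06 and Irf1 at -0.999, 2 of the 18 were lower at that threshold and the median was -0.54, beside 0.01 over all probe sets. Of all 6512 probe sets, 339 passed that threshold in either direction without this array. 

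The other genes of leukocyte adhesion showed no call after adjustment in SHR against WKY collaterals. Over all tested probe sets 7.62% passed an unadjusted p of 0.05 there. Of the selectins, their ligands and the proteins of endothelial storage granules, 6 of 14 were tested, with 0 higher and 1 lower at an unadjusted p under 0.05 and a median of 0.25. The lower one was Sele, at 6.37 ± 0.30 in SHR and 8.40 ± 0.99 in WKY collaterals (SD, n = 4 each; difference -2.03 ± 0.76 SE; limma, adjusted p = 0.557), while Glycam1 stood at 1.16 ± 0.55, Cd24 at 1.54 ± 0.98, Cd63 at -0.44 ± 0.30 and Vwf at 0.09 ± 0.63. The SHR collateral values of Sele, 6.05 to 6.75, were all below the 40th percentile of signal of their arrays, so they lie near background. Of the leukocyte integrins, 4 of 12 were tested and 1 was lower, Itgb1 at -1.23 ± 0.40 (SE), a beta chain that pairs with alpha chains on many cell types, or -0.71 without SHR collateral 3. Itgav stood at 1.45 ± 0.76, Itgae at 0.74 ± 0.65 and Itgb7 at -0.24 ± 0.35. Of the chemokines and their receptors, 9 of 15 were tested and 0 passed an unadjusted p of 0.05, with a median of 0.003. Ccl2, which attracts monocytes, stood at -0.64 ± 0.43, Cxcr2 at -0.74 ± 0.77, Ccl3 at 0.60 ± 0.94 and Ccl20 at -0.42 ± 0.66. Cx3cl1 stood at -0.18 ± 0.53 by its brightest probe set, at -0.22 ± 0.32 by AF030358_at and at -2.76 ± 1.05 by AF030358_g_at. Without SHR collateral 3 the chemokine median was -0.46, Cx3cl1 stood at -0.76 by its brightest probe set, Cxcr2 at -1.38, Ccl20 at -0.82 and Ccl3 at -0.039. On the same arrays Sele stood at -2.05, Cd63 at -0.045, Vwf at -0.23, Itgae at 0.11 and Itgb7 at -0.38.

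No gene of endothelial identity or of cell junctions was called either. The share over all tested probe sets at an unadjusted p under 0.05 was again 7.62%. Of 22 endothelial genes 11 were tested, with 1 higher and 1 lower at an unadjusted p under 0.05 in SHR against WKY collaterals, the lower one being Icam2. The higher one was Flt1, a receptor of vascular endothelial growth factor, at 1.51 ± 0.56 (SE; limma, adjusted p = 0.549). Edn1, the endothelin gene, stood at -1.30 ± 0.62, Kdr at 0.46 ± 0.44 and Nos3 at -0.31 ± 0.55. Of the 11, 8 lay above 0, with a median of 0.32, or 0.06 without SHR collateral 3, where Edn1 also passed that threshold at -1.49. Of 25 junction and other endothelial adhesion molecules 10 were tested, with 1 higher, Madcam1 at 0.74 ± 0.34, and 0 lower, and a median of 0.24. Without SHR collateral 3, Madcam1 stood at 0.43 and none of the 10 passed that threshold. The tight junction genes Ocln and Tjp1 stood at 1.34 ± 0.67 and -0.65 ± 0.41, and Alcam, a further immunoglobulin family member, at 0.54 ± 0.41. Leaving out SHR collateral 3 gave 0.89 for Ocln, -0.31 for Tjp1 and 0.11 for Alcam, and Kdr stood at 0.30 and Nos3 at -0.76.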

How the data were processed

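Total RNA of 15 artery samples was hybridised to 1-colour arrays. The authors deposited 1 signal value per probe set and array, computed with GCOS and MAS5 per the submitters' processing notes, which give no version here. These signals carry a global scaling, since their mean after trimming 2% lay between 1001.06 and 1001.75 on each array. Scaled signals can be compared between arrays only where total RNA is alike. The number of arrays and the brightness of a probe set limit the precision.

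Signals under 1 (12 values) were raised to 1 before log2, and 59 control probe sets were dropped. The fit took every probe set that reached the 40th percentile of its array on 3 or more arrays. The platform annotation gave 7006 probe sets 1 symbol, 308 several and 1426 none, and only the first were named. The model, in limma 3.58.1 (R 4.3.3), held 1 mean per group for 4 groups and 15 arrays, with a variance trend (residual degrees of freedom 11, prior 7.19). P-values were two-sided and adjusted by Benjamini-Hochberg over the 6512, with a threshold of 0.05. The fit was tested on simulated data.

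Groups came from the labels of strain and vessel type. The members and the gene lists were chosen with earlier results of these data known. Named were all member probe sets, the 3 genes most correlated with each, up to 4 genes per list with the smallest p in the collateral strain comparison, and a set of fixed genes, of which part is given. For a gene with several probe sets, lists used the one with the highest mean signal. The values relative to Pecam1, the gene lists without SHR collateral 3, and the further probe sets of Irf1 and Cx3cl1, were added after seeing the data. Alternatives were other normalizations, filters, variance models and array weights, fits of only the groups compared, a replicate block and each array left out.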

Additional observations from a re-analysis of the deposited data

Results flagged for a closer look

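The array SHR collateral 4 read 10.996 on the log2 scale for Icam1 (D00913_g_at), the lowest of its group, and its gap to the nearest of the other 3 was 0.866 of the whole range of the group. Chance flags about 1 in 20 groups, and 1 of the 21 groups of 4 arrays tested for the 7 probe sets was flagged. Whether this low value is technical was not tested. All 6 probe sets other than Pecam1 were below the group mean on the same array.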

How the results depend on the processing

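The count of adhesion molecule probe sets called after adjustment was 0 in each tested comparison and remained 0 under each alternative run, except that with a replicate block (replicate number as a fixed term) 1 was called in SHR against WKY collaterals, Icam2 at -1.96 (limma, adjusted p = 0.0312). Over all 25 alternatives that adjusted p ran up to 0.698. Same-numbered arrays of SHR and WKY collaterals had correlations of their deviations between 0.042 and 0.308, over 0.1 in 3 of 4 pairs, and 4 of the 8 arrays correlated best with their own number. Across the other pairs of groups that share a strain or a vessel type they ran from -0.070 to 0.306. There, 5 of 8 arrays of SHR collateral and control arteries correlated best with their own number. For WKY collateral and control arteries it was 4 of 7, and for SHR and WKY control arteries 2 of 7. The numbers were not taken as pairs, since not every same-numbered pair had a correlation over 0.1. Whether same-numbered arrays share a source was not tested. Over all probe sets, the strain difference in collaterals gave 26 calls with array weights, 2 with only the groups compared, 6 with the fixed replicate block and 0 to 7 with 1 array left out, against 0. In control arteries the count of 2 became 0 without a filter and with a 60th percentile filter, 1 without a variance trend, 14 with array weights, 7 with only the groups compared, 4 with the fixed replicate block and 0 to 6 with 1 array left out. The median strain difference in collaterals over all probe sets, 0.12, was -0.081 with equal array medians and 0.018 with quantile normalization. The strain difference in collaterals kept its sign under every alternative for the probe sets other than Icam1 (D00913_at), which ran from -0.68 to 0.10 with 1 array left out.

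Values near 0 changed sign in the following cases, none past the threshold, and the cause was not tested. For SHR collateral against control these were Icam1 at -0.042 (D00913_g_at, equal array medians), Icam1 at 0.0097 (D00913_at, constant of 68.5 added) and Vcam1 at 0.55 (M84488_at, array weights), with ranges under left-out arrays of -0.19 to 0.41, -0.38 to 0.39 and -0.48 to 0.38. For WKY they were Selp at -0.0075 with array weights, and Icam2 at 0.051 and Icam1 (D00913_at) at 0.025 with the replicate block. With 1 array left out Selp ran from -0.25 to 0.75, Icam2 from -0.62 to 0.037, Icam1 (D00913_at) from -1.10 to 0.24, Vcam1 (X63722cds_s_at) from -1.14 to 0.026 and Pecam1 from -0.031 to 0.70. For the difference of the changes, Icam1 (D00913_at) was -0.17 with array weights and -0.034 with the replicate block, and with 1 array left out it ran from -0.25 to 1.09, Selp from -0.0019 to 0.99 and Pecam1 from -0.34 to 0.39. The groups of 3 or 4 arrays and the low signal of Icam2 in SHR control arteries limit these estimates.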
